A study of Homo sapiens with 4 samples.

Results

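FOX, KLF, SOX, ETS, STAT and E2F proteins are DNA-binding transcription factors, and SNAI, ZEB and TWIST proteins are the classical factors of epithelial-to-mesenchymal transition (EMT). Their genes were followed through the list of RNA immunoprecipitation sequencing (RIP-seq) peaks for the RNA-binding protein HuR. A peak was given to the gene of the RefSeq transcript in its annotation, and a gene was taken into the set by its symbol. Of 14149 peaks, 170 lay in such a gene, and they belonged to 30 of the 3313 genes with any peak. RefSeq holds 129 protein-coding genes with these symbols, so 99 were unlisted.

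The cells were MDA-MB-231, a human triple-negative breast cancer line, cultured in DMEM with serum. RNA was isolated from lysate with a mouse antibody against HuR in 2 samples and with mouse IgG in the other 2. All libraries were made from total RNA without poly(A) selection. The deposited table is a single list for the 4 samples, so it has no value for a replicate or for IgG, and no difference between HuR and IgG could be tested. A peak list gives no expression level, so it is no check of the cell type. Of 5 mesenchymal marker genes 3 had a peak (AXL, CD44 and FN1, but not VIM or SPARC), and of 5 epithelial or luminal markers (CDH1, EPCAM, CLDN4, ESR1 and KRT19) 0 had a peak, where 15.4% of all protein-coding genes had one. With so few genes these counts say little, and other junction genes of epithelia, CLDN1 and OCLN, were listed while the mesenchymal genes CDH2 and MMP2 were not.

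HuR, encoded by ELAVL1, is known to bind AU-rich and U-rich elements, mostly in 3′-UTRs, and to stabilise the mRNA or change its translation. Messages of transcription factors are often short-lived, and AU-rich elements are a common reason. FOXQ1, SNAI1, SNAI2, ZEB1 and ZEB2 are known repressors of CDH1, the E-cadherin gene, and this links the set to invasion.

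Sequences of the 3′-UTR are shown for 6 genes, among them those with the richest windows, to let a reader see what kind of RNA their peaks cover. Each is the 30-base window with the most A and T that lies inside both a listed peak and the 3′-UTR, read 5′ to 3′ on the strand of the gene (hg38), with the pentamer ATTTA in capitals.
FOXQ1, chr6:1314464-1314493, + strand: gttttgtaattaaattATTTAtatattttt
ZEB1, chr10:31528901-31528930, + strand: tttttaatataaaacttaaattttgaaatt
SOX9, chr17:72124482-72124511, + strand: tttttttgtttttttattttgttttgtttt
SOX4, chr6:21597512-21597541, + strand: ttttttttttcttttttttttttttttttt
FOXP1, chr3:70958738-70958767, − strand: tttttttttttttttttttttttttttttt
E2F7, chr12:77023835-77023864, − strand: atttcctgaaagtaattaattgtgcATTTA

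The windows were picked for A and T, so their richness is not a finding. What differed was their kind. The FOXQ1 window is a mixed AU-rich element with 28 A or T of 30 and holds most of the stretch from which the study drew its RNA bait. The SOX4, SOX9 and FOXP1 windows are runs of T, with 29, 27 and 30 A or T. The E2F7 window reached only 23. Of the 30 listed genes, 4 had the richest window of their whole 3′-UTR inside a listed peak, namely FOXQ1, FOXP1, SOX4 and ZEB1. ELK4, ETS1, ETV6, FOXK1, FOXK2 and FOXN3 had windows of 29 or 30 A or T in 3′-UTRs that no listed peak touched.

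The 30 listed genes were 23.3% of the 129 (Wilson 95% interval 16.8 to 31.3%). The background was 15.4% of all 20056 protein-coding genes. The share was 44.4% for the ETS group (8 of 18 genes, interval 24.6 to 66.3%) and 27.8% for KLF (5 of 18, 12.5 to 50.9%). It was 17.3% for FOX (9 of 52, 9.38 to 29.7%) and 10.5% for SOX (2 of 19, 2.94 to 31.4%). STAT and the EMT factors each had 2 of 7 genes listed and E2F 2 of 8. These intervals cover counting error only, and the genes of a family are not replicates. In a comparison list of 61 other transcription factor genes (AP-1, RUNX, IRF, TEAD, SP, NFI and others), 27 had a peak, or 44.3% (32.5 to 56.7%). The family share was thus below that of the comparison list and its lower bound was just above the share of all genes.

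**Figure D1:**
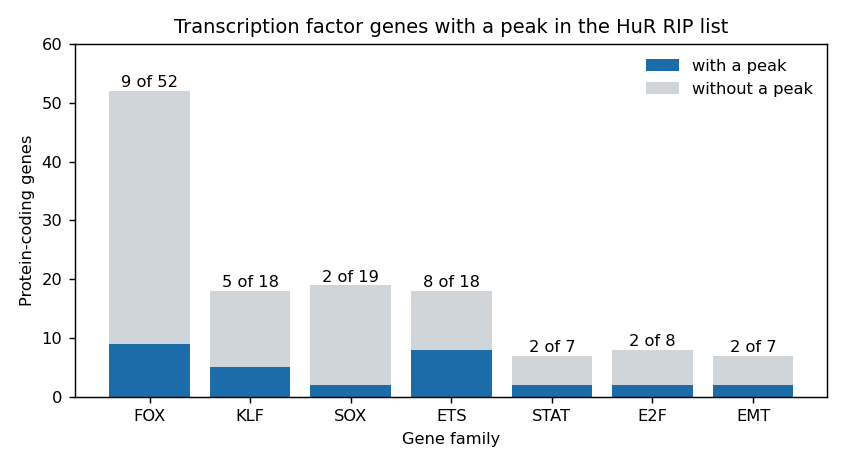
Number of protein-coding genes of each symbol group with a peak (blue) and without a peak (grey), with the label giving the genes with a peak of all genes with matching symbols. FOX is the largest group, with 9 of 52 genes listed, and ETS has the highest share, with 8 of 18.

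The 99 unlisted genes included many that are restricted to other tissues, and also FOXM1, FOXO3, KLF4, KLF6, ELF1, ETV4 and E2F1. FOXL2NB, which has a matching symbol but is only a neighbour of FOXL2, was among them. A gene without a peak was not shown to be unbound, since low expression and absence of binding cannot be told apart in a list without levels. The lowest score in the list was 8.32 and the lowest of the family 9.54.

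The 170 peaks had a median score of 50.4 (quartiles 24.3 and 86.5), against 34.0 for the whole list (17.6 and 83.4). The score is HOMER's own value for a peak, on a scale the authors did not state, and serves here only to order peaks within the list. Of the 170 peaks, 107 were at or above the list median, or 62.9% (55.5 to 69.8%). This rested on 2 genes, FOXP1 and E2F7, which held 50 peaks, or 29.4%. Without them the median was 34.4, and 60 of 120 peaks (interval of the share 41.2 to 58.8%) were at or above the list median. Counted by gene, the median of the best scores was 33.0 over the 30 genes and 34.0 over all listed genes.

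**Figure D2:**
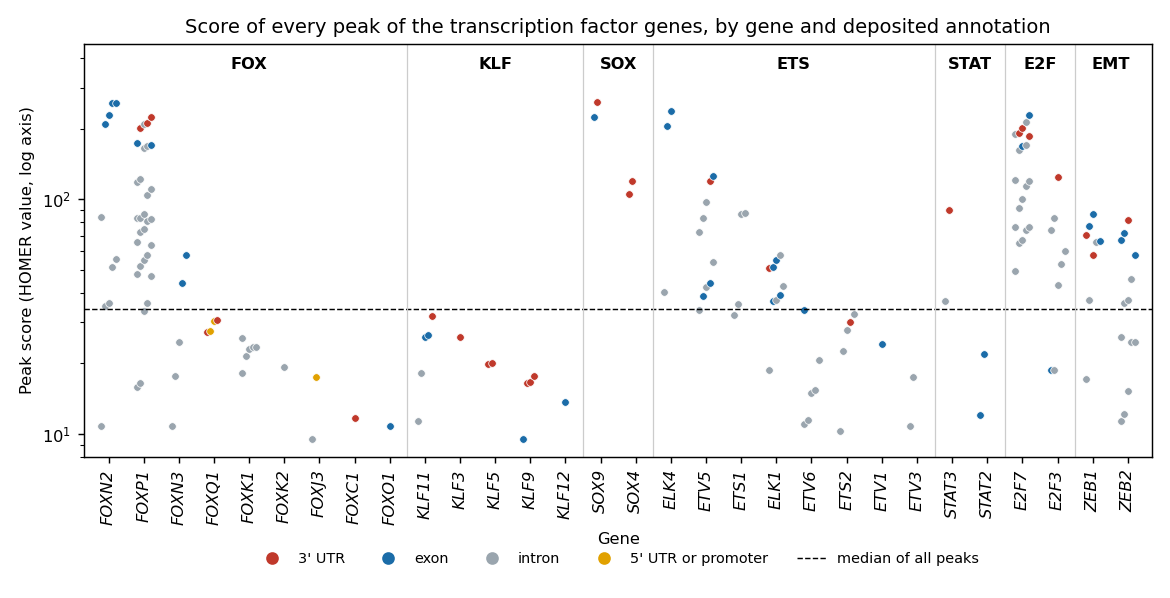
Score of each of the 170 peaks (points, log axis) by gene, grouped by family and coloured by the deposited annotation; the dashed line is the median of all peaks in the list, 34.0. FOXN2, SOX9, ELK4, E2F7 and FOXP1 have peaks above 200, whereas all KLF peaks lie below the line.

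Best scores fell into steps. All 11121 scores below 100 were within 0.055 of a whole multiple of 0.245, where 44.9% would be so by chance. If that step is 1 sequenced tag, which the authors did not state, exact Poisson 95% intervals can be put on single scores, for counting error only. SOX9 (259.4, interval 244 to 276), FOXN2 (258.9), ELK4 (238.8), E2F7 (229.3) and FOXP1 (224.4, 210 to 239) formed the first group, in which each neighbour in the order overlapped the next. They took ranks 276 to 332 of 3313 genes. ETV5 (125.5, 115 to 137), E2F3 (124.6) and SOX4 (120.2) came next, and did not overlap FOXP1 above. STAT3 (90.1), ETS1 (87.4), ZEB1 (86.4) and ZEB2 (81.7, 73.2 to 91.0) followed, then ELK1 (58.2) and FOXN3 (57.8). From ETV6 (33.8) down to FOXO1 (10.8), each of the other 16 genes overlapped its neighbour. FOXQ1, with 30.6, was in this last run at rank 1781, below ETV6, ETS2 (32.3) and KLF11 (31.8).

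The FOX genes carried 60 of the 170 peaks, and FOXP1 carried 30 of these. FOXP1 encodes a forkhead repressor known from B cell and lung development. It was at rank 6 of all genes in the list by number of peaks. Its scores ran from 15.9 to 224.4 with a median of 83.1. All 30 peaks lay beyond the midpoint of the 629021 bp gene, and they touched 15 of the 21 exons of the canonical transcript. The exons not touched were 1 to 5, which lie before the midpoint, and 9. All coding exons lie beyond the midpoint, the first from 385347 bp after the transcript start. The highest were a pair of − peaks in the 3′-UTR with scores of 224.4 and 211.9, with + peaks of 209.0 and 201.9 beside them. Of the 30 peaks, 19 also overlapped exons annotated to a FOXP1 readthrough gene on the same strand. Which of these annotated genes the RNA came from is uncertain for them.

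FOXN2, a forkhead gene that is little characterised, had the highest FOX score and 10 peaks. The 2 last lay in exon 7 of 7 and scored 258.9 and 257.9, and a pair in exon 3 scored 228.6 and 209.2. The other 6 peaks were annotated in introns and scored 84.2 or less. Its 3′-UTR of 3852 bases holds 14 ATTTA, but only 108 of these bases were in a peak. The high scores of FOXN2 were thus on coding exons.

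FOXN3, a repressor of cell cycle genes, had 5 peaks. A pair in coding exon 2 scored 57.8 and 43.8, and the others 24.7, 17.6 and 10.8. The remaining FOX genes were low. FOXK1, a repressor of autophagy genes, had 6 intronic peaks from 18.1 to 25.7, and its relative FOXK2 had 1, with 19.3. FOXJ3 had 2 peaks with scores of 17.4 and 9.54. FOXO1, the insulin-regulated forkhead factor, had 1 peak in exon 1 with a score of 10.8.

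FOXQ1 had 4 peaks with scores of 30.6, 30.3, 27.4 and 27.2, one pair at each end of its single exon. These values could not be told apart by counting error, as the lowest had an interval of 22.3 to 32.7 and the highest of 25.5 to 36.4. What set FOXQ1 apart among the listed genes was the extent of cover. Its 3′-UTR is the shortest of the 30, with 842 bases, and 541 of them, or 64.3%, were in a peak. The next highest was KLF5 with 41.8%, and the median was 17.1% over the 19 listed genes with any 3′-UTR base in a peak. A peak has a fixed length of 347 bp, so short 3′-UTRs are covered more by each.

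FOXC1, a forkhead factor known as a marker of basal-like breast cancer, lies near FOXQ1 on chromosome 6 and is also a single exon. It had 1 peak (chr6:1612268-1612614), annotated in the 3′-UTR, with a score of 11.7 (8.66 to 15.6). The intervals of FOXC1 and FOXQ1 did not overlap.

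Genes with a single exon are of use here because a peak cannot fall into an intron of theirs. Of 29 such family genes, 3 had a peak (FOXQ1, FOXC1 and SOX4), or 10.3% (3.58 to 26.4%), against 3.27% of all 1040 single-exon protein-coding genes. Family genes with more exons had a share of 27.0% (27 of 100), against 16.8% of all such genes. The 3 listed single-exon genes held 7 peaks, of which 5 were annotated in the 3′-UTR, and none had its centre in the coding part.

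**Figure D3:**
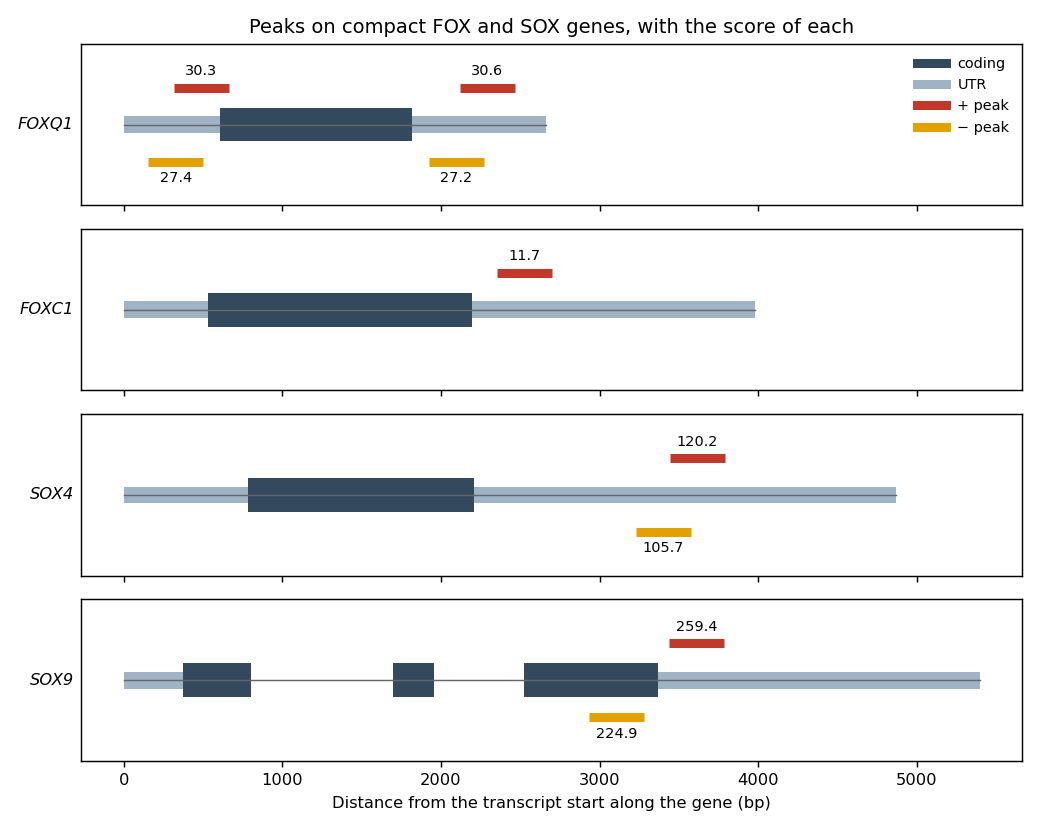
Peaks on FOXQ1, FOXC1, SOX4 and SOX9 drawn to scale by distance from the transcript start (bp); dark boxes are coding, light boxes untranslated, + peaks are above and − peaks below the gene, with the score beside each. The + peak lies to the right of the − peak in each pair, and FOXC1 has a single peak of 11.7.

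SOX4 and SOX9 encode HMG-box factors of progenitor cells that are linked to EMT and stemness in breast epithelium. They were the only listed members of the 19 SOX genes, and all 4 of their peaks scored above 100. SOX9 had a + peak of 259.4 in the 3′-UTR (chr17:72124457-72124803), and a − peak of 224.9 in the coding part of its last exon. The + peak began shortly after the stop codon, and the T-rich window shown above started 95 bases into the 3′-UTR. SOX4 had 2 overlapping peaks in its 3′-UTR, a + peak of 120.2 and a − peak of 105.7. The SOX4 window lay 1553 bases into a 3′-UTR of 2660 bases. The other 17 SOX genes, SOX2 and SOX10 among them, were unlisted.

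The KLF genes, zinc finger factors of differentiation and metabolism, had the lowest scores. Their 13 peaks ran from 9.54 to 31.8 with a median of 18.1, all below the median of the list. They also had many 3′-UTR peaks, 7 of 13, or 53.8% (29.1 to 76.8%), in 4 of 5 genes. SOX stood higher, with 3 of 4 peaks (30.1 to 95.4%). STAT had 1 of 4 peaks there, and the share was 14.3% for both E2F (4 of 28) and the EMT factors (3 of 21). Of the families with most peaks, 6 of 60 FOX peaks, or 10.0% (4.66 to 20.1%), and 3 of 40 ETS peaks, or 7.50% (2.58 to 19.9%), were in 3′-UTRs. Peaks of 1 gene are not independent, so these intervals are too narrow and no test was made.

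KLF11, a TGF-β-induced repressor, had 5 peaks, the best of 31.8 in the 3′-UTR and the others 26.4, 25.9, 18.1 and 11.3. KLF5, which drives proliferation of epithelial cells, had 2 + peaks of 20.1 and 19.8 in the 3′-UTR, without a − partner. KLF9, a glucocorticoid-responsive gene, had 3 peaks in the 3′-UTR with scores of 17.6, 16.6 and 16.4 and 1 in exon 1 with 9.54. KLF3 had 1 peak of 25.9 in the 3′-UTR, and KLF12 had 1 of 13.7 in a coding exon.

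The ETS group had the highest share of listed genes among the symbol groups, with 40 peaks. ELK4 and ELK1 encode partners of serum response factor that respond to MAP kinases. ELK4 had 3 peaks, a pair of 238.8 and 206.0 in coding exon 3 and one of 40.4 near the start of the gene. Its 3′-UTR is 8603 bases long and holds 26 ATTTA, the most among the listed genes, and 0 of its bases were in a peak. ELK1 had 9 peaks in a narrow range from 18.8 to 58.2, which touched 6 of 7 exons.

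ETV5 and ETV1 belong to the PEA3 group, which acts downstream of growth factor receptors. ETV5 had 10 peaks from 33.8 to 125.5. The 2 highest, 125.5 and 119.4, were in its last exon, and the next were an intronic pair of 97.6 and 83.0. ETV1 had 1 peak of 24.2. ETS1, linked to invasion and to protease genes, had 4 intronic peaks with scores of 87.4, 86.6, 35.7 and 32.1. Its relative ETS2 had 5 peaks from 10.3 to 32.3. The repressors ETV6 and ETV3 had 6 peaks from 11.0 to 33.8 and 2 peaks of 17.4 and 10.8.

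Among the E2F genes, E2F7 and E2F3 were listed. E2F7 is an atypical repressor of S-phase genes and E2F3 an activator. E2F7 had 20 peaks from 49.7 to 229.3 with a median of 120, and they touched 11 of its 13 exons. The best peak, of 229.3, was in coding exon 12. The 3 peaks in the 3′-UTR scored 201.4, 191.4 and 186.0, and a pair beside exon 3 scored 213.1 and 189.7. High values thus occurred on both sides of the midpoint of E2F7, with 9 peaks beyond it and 11 before it. Lower scores occurred nearest the start of the gene, with 92.3, 67.1 and 49.7, and also farther in, with 65.1, 73.7, 76.1 and 76.4. E2F3 had 8 peaks, with 124.6 in the 3′-UTR and the others from 18.8 to 83.4.

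STAT3, the cytokine-responsive factor often active in breast cancer, had a − peak of 90.1 in the 3′-UTR and an intronic + peak of 37.0. STAT2, which acts with interferon, had 2 coding-exon peaks of 21.8 and 12, and its 3′-UTR of 1792 bases has 0 ATTTA.

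Of the EMT factors, only ZEB1 and ZEB2 were listed. Both encode zinc finger repressors of CDH1. ZEB1 had 8 peaks, with scores of 86.4, 76.8 and 66.6 in coding exons, 70.7 and 58.2 in the 3′-UTR, and 65.8, 37.2 and 17.1 in introns. ZEB2 had 13 peaks. The best, of 81.7, was annotated in the 3′-UTR, with 71.9, 66.8 and 58.0 in coding exons and 9 intronic peaks from 11.3 to 45.8. The coding and 3′-UTR scores of ZEB1 and ZEB2 lay in 1 range, from 58.0 to 86.4, and the best scores of both genes overlapped in their intervals. ZEB2 has 24 ATTTA in a 3′-UTR of 5370 bases, of which 3.24% was in a peak.

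SNAI1, SNAI2, SNAI3, TWIST1 and TWIST2 had 0 peaks. For SNAI1, the paper states from a separate immunoprecipitation assay that it appears not to be a direct target of HuR in these cells. The deposited gene column has a peak named TWISTNB, with a score of 70.7. That is an older symbol of POLR1F, an RNA polymerase I subunit, and not a TWIST gene. SNAI2 has a 3′-UTR of 1209 bases with 2 ATTTA, and SNAI1 of 830 bases with 3.

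**Figure D4:**
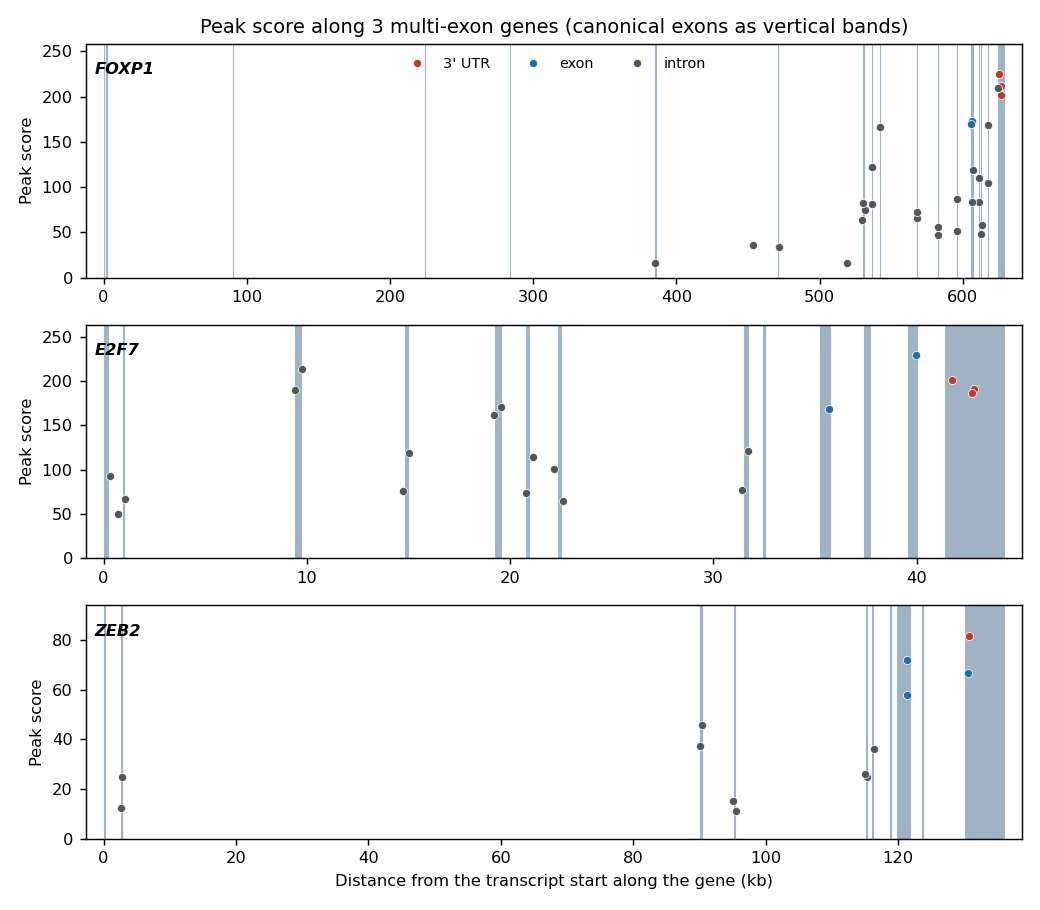
Peak score against distance from the transcript start (kb) along FOXP1, E2F7 and ZEB2; vertical bands are exons of the canonical transcript and points are peaks, coloured by annotation. The peaks follow the exons, and all 30 of FOXP1 lie beyond the midpoint of the gene, as do all its coding exons.

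EMT effector genes outside the families were looked up from a list of 25. Of these 6 had a peak, or 24.0% (11.5 to 43.4%), an interval that includes the 15.4% of all protein-coding genes. The scores of 3 of the 6 were above those of all family genes. ITGB1, the integrin β1 gene, had a best score of 1875.7, CTNNB1 (β-catenin) 834.0 and CD44 769.6. CLDN1 (36.5), FN1 (20.3) and OCLN (9.54) were within the range of the family. CDH1, CDH2, VIM, MMP9, PLAUR, CD82 and LAMA4 were among the 19 without a peak.

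By the deposited annotation, 104 of the 170 peaks were in introns, or 61.2% (53.7 to 68.2%), against 61.9% of all peaks. Exons held 36 peaks, or 21.2% (15.7 to 27.9%), against 12.6%. The 3′-UTR held 27, or 15.9% (11.2 to 22.1%), against 14.6%. A total of 17 family genes of 129 had a peak annotated in the 3′-UTR, against 6.09% of all protein-coding genes. For 102 of the 105 peaks centred in an intron of the canonical transcript, the nearest exon was at most 347 bp away, at a median distance of 79.0 bp. The exceptions were 2 FOXP1 peaks, of 36.0 and 15.9, and 1 of E2F3, of 18.8. At 173 bp back against the strand of each peak, 93 of 170 were in coding exons, or 54.7% (47.2 to 62.0%), and 39 in introns, or 22.9%. The family peaks behaved in this like all peaks, of which 53.2% were then in coding exons.

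The strand of a peak said little about the gene. Of 170 peaks, 96 were on the strand of their gene, or 56.5% (49.0 to 63.7%). For 60 of the 87 − peaks a + peak of the same gene had its centre within 1000 bp, and it was on the right in 55, at a median offset of 340 bp. Members of a pair had similar scores. The median log2 ratio of the + to the − score was -0.07 with an SD of 0.38, and 48 of 60 pairs were within 1.5-fold. Over all pairs of the list the median was -0.01 with an SD of 0.57, and 2776 of 3447 pairs were within 1.5-fold. The SOX9 pair (259.4 and 224.9) and the FOXQ1 pairs are typical. With overlapping peaks merged, the 170 peaks formed 138 loci.

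AU-rich sequence was then examined in the 27 peaks annotated in 3′-UTRs, which belonged to 17 genes. ATTTA was present on the gene strand in 17 of 27 peaks, or 63.0% (44.2 to 78.5%), and in 52.7% of all 2055 3′-UTR peaks of the list. On the other strand it was present in 63.0% and 51.8%. A run of 5 T (TTTTT) was present in 25 of 27, or 92.6% (76.6 to 97.9%), against 78.5% of all, and on the other strand in 66.7% and 57.4%. The heptamer TATTTAT, which contains the pentamer, was in 2 of 27 (FOXQ1 and SOX4), or 7.41%, against 8.22%. The median A and T content of these peaks was 60.2%, against 62.5% for all 3′-UTR peaks. For ATTTA the interval includes the value of all 3′-UTR peaks.

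The relation of ATTTA counts to the score was not tested. Peaks of FOXP1 (201.9) and ZEB1 (58.2) had 3 each, and both FOXQ1 peaks and 1 KLF5 peak had 2. The SOX9 peak of 259.4 had 1, and the 3′-UTR peaks of ETV5, STAT3, ZEB2, ETS2, KLF11, KLF3 and FOXC1 had 0. The SOX4 peak of 105.7 and the KLF9 peaks of 17.6 and 16.4 also had 0. Among the 27 peaks, those with 0 scored from 11.7 (FOXC1) to 119.4 (ETV5). Those with at least 1 scored from 16.6 (KLF9) to 259.4 (SOX9), so the ranges overlapped. A window with at least 28 A or T of 30 was found in 4 of 27 peaks, or 14.8% (5.92 to 32.5%), against 5.06% of all 3′-UTR peaks. The cut of 28 equals the count in the FOXQ1 window shown above. The median count of A or T in the richest window was the same for the family peaks and for all 3′-UTR peaks. The difference thus concerned only this upper tail, with few peaks, and does not show that the family peaks were richer in general. A match only states that these letters are in the window.

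Listed and unlisted family genes differed in their 3′-UTRs in the same direction as all genes. The median length was 3167 bases in the 30 listed genes and 1311 in the 94 unlisted genes with a 3′-UTR, against 2504 and 864 over all protein-coding genes. The median density of ATTTA was 2.44 per kb and 1.67 per kb, against 2.68 and 1.24. Only 1 listed gene, STAT2, had a 3′-UTR without the pentamer, whereas 19 unlisted genes did. Listed genes were also longer in transcript, with a median of 5234 bases against 2901, and had a median of 7.50 exons against 3. Length, exon number and pentamer density thus moved together, and their part in the listing was not tested.

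**Figure D5:**
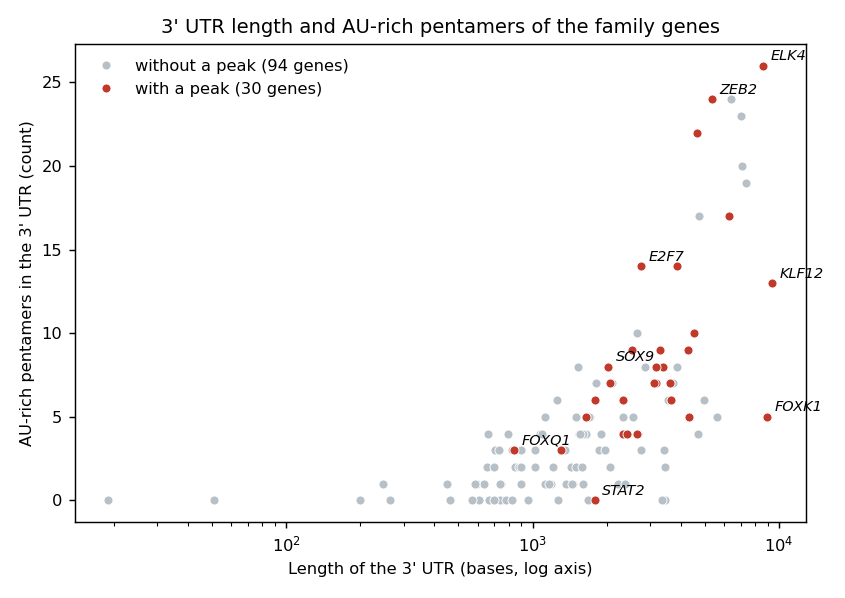
Number of ATTTA pentamers against 3′-UTR length (bases, log axis) for family genes with a peak (red) and without a peak (grey). The median length is 3167 bases with a peak and 1311 without, FOXQ1 (842) and ELK1 (1308) are listed genes below the latter, and STAT2 is the listed gene at 0.

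Many pentamers lay in genes without a peak annotated in the 3′-UTR. The 3′-UTRs of the 30 listed genes hold 270 ATTTA, and 137 of these are in the 13 genes without an annotated 3′-UTR peak. These 13 genes were ELK4, ETS1, ETV1, ETV3, ETV6, FOXJ3, FOXK1, FOXK2, FOXN2, FOXN3, FOXO1, KLF12 and STAT2. FOXN2 and STAT2 still had 108 and 170 bases of the 3′-UTR in a peak. The counts are not per base, and some of these 3′-UTRs are long, with 9401 bases in KLF12 and 8978 in FOXK1. They therefore do not state that pentamers were denser in these genes. ETV1, with 22 ATTTA in a 3′-UTR of 4637 bases, had its only peak in coding exon 3.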

How the data were processed

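HuR RIP-seq and IgG RIP-seq were done in MDA-MB-231 cells, with 2 samples each. Per the submitters' processing notes, STAR and HOMER were used with hg38. Versions, the peak threshold and the pooling of replicates are not given in the sources used here. The methods name ANNOVAR, whereas the header of the file holds a HOMER annotation command. The deposited list has a peak score per peak (a HOMER score of unstated scale), a focus ratio (a fraction, per the file headers) and a distance to the nearest start site. It has 0 columns of values per sample, so depth is unknown, and no test, fold or replicate error could be had. Groups were taken from the antibody label.

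Of 14149 peaks, 13929 had a RefSeq transcript in the annotation and 13838 of these matched a RefSeq gene (GRCh38). That gene, not the deposited gene column, was the host. Family genes were chosen by symbol. The ETS group held only symbols of ETS1, ETS2, ETV, ELF1 to ELF5, ELK1, ELK3 and ELK4, so its share is not that of every gene with an ETS domain. The members and lists were chosen with earlier results of these data known. Every listed family gene was named. The rule gave most room to FOXQ1, the 3 best-scoring genes of each family, all SNAI, ZEB and TWIST genes and listed single-exon genes. Of these, FOXP1, E2F7, E2F3, ETV5, FOXN2 and ZEB2 have many peaks and were given by their range and leading peaks. KLF12, ETV1, FOXO1 and other lower genes were given in brief.

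Canonical transcripts and 3′-UTRs were taken from GENCODE 44 and sequence from hg38. As all peaks are 347 bp long, positions were also read 173 bp back against the peak strand. Shares have Wilson 95% intervals and scores exact Poisson intervals. The motifs were searched on both strands, with overlaps allowed. Alternatives were the gene column, a score minimum at the list median, merged loci, the position read back and other motifs. Scripts were tested on simulated data. Python 3.11.15, numpy 2.4.6, pandas 2.3.3, scipy 1.17.1, pysam 0.24.0 and matplotlib 3.10.9 were used.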

Additional observations from a re-analysis of the deposited data

How the results depend on the processing

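Counts depended most on the score minimum. With peaks at or above the list median only, 14 of the 30 genes and 107 of the 170 peaks were left. The median score of 50.4 was 33.0 with the best peak of each gene, 70.7 with 3′-UTR peaks alone and 34.4 without FOXP1 and E2F7, an alternative chosen after seeing the data. The share of 3′-UTR peaks with the pentamer, 63.0%, was 7.41% for TATTTAT and 92.6% for TTTTT. It was 44.4% (27.6 to 62.7%) with windows moved 173 bp back, just inside the interval of the unmoved share. All 3′-UTR peaks moved alike had 51.1%. The family share was thus above that of the list as listed, and below it when moved. The share of peaks in 3′-UTRs stayed between 15.0% and 17.5% under the 5 alternatives run. By the gene column 29 genes were found. No paired analysis was possible because each peak has a single score for the whole series, and for the same reason no replicate could be left out. Depth is unknown, and a gene without a peak may be expressed too little to give one.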

Other observations

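Within 1000 bp of the canonical start lay 13 family peaks of 11 genes. Their median focus ratio, HOMER's share of tags that fit a single peak centre, was 0.711, against 0.533 for the other 157 family peaks (0.692 and 0.538 over the whole list). A ratio of 0.8 or more was found at 4 of the 13 and at 3 of the 157. Over the whole list it was found at 304 of 950 peaks near a start and at 175 of 12757 elsewhere. The family peaks were thus like all peaks in this. The 4 family peaks near a start were FOXN2 (0.946, score 84.2), FOXJ3 (0.892, score 17.4), ELK1 (0.843, score 18.8) and ELK4 (0.833, score 40.4).

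The deposited gene column, which names the gene with the nearest start site, gave another gene at 40 of 170 family peaks, or 23.5%, against 43.3% of all peaks with a RefSeq gene. All peaks of FOXK1, KLF12, KLF3, STAT2 and ZEB2 were named for another gene, such as AP5Z1 for FOXK1 and IL23A for STAT2. The STAT3 peak of 90.1 was named STAT5A. By contrast, 7 peaks named ELK3 lay in CDK17, with a best score of 76.6, and 4 named FOXE3 lay in CMPK1, with a best score of 407.9.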
